A study of Mus musculus with 12 samples.

Results

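A set of 10 genes that mark adipose progenitors and fibroblasts was followed through perigonadal white fat of mice that lacked Cdk7 in adipose tissue. They are Pdgfra, Cd34, Ly6a, Dpp4, Pi16, Cd55, Dcn, Lum, Dpt and Gsn, chosen by gene symbol from the 53379 Ensembl genes of each count file, and all 10 passed the filter on low counts that left 16554 genes. The study set knockout mice (called ko, the adipose-specific deletion labelled CDK7 aKO) beside control littermates (wt), all C57BL/6 and 9 weeks old. Each genotype received CL or saline injections for 7 days, which gave 4 groups (ko CL, ko saline, wt CL and wt saline) of 3 libraries each. CL is not spelled out in the labels and usually stands for an agonist of the beta-3-adrenergic receptor, and the Cre driver behind the deletion is not given in the sources used here. Each library pooled RNA of 2 mice, so a group rests on 6 mice, and every p-value below reflects variation among such pools only.

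White fat holds, besides its adipocytes, a stroma of fibroblast-like cells from which new adipocytes arise. Mouse stroma is usually sorted as Pdgfra+, Cd34+ and Ly6a+ cells. An early state that marks itself with Dpp4, Pi16 and Cd55 lies in the connective tissue around the lobules, and cells carrying Icam1 are described as more committed to the adipocyte fate. Fibroblasts of this stroma also secrete the small leucine-rich proteoglycans decorin and lumican and the matrix protein dermatopontin, which bind collagen fibrils. None of these genes is exclusive to the stroma: Cd34 and Ly6a are also used by endothelial cells, and Gsn, encoding the actin-severing protein gelsolin, by adipocytes and other cells.

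Groups were taken from the sample titles, since a separate genotype entry in the labels follows the treatment and contradicts 6 of the 12 titles. Cdk7 was at 18.1 to 23.6 CPM (a gene's counts relative to the library total after TMM scaling, the usual CPM unit) in ko CL and 11 to 11.7 CPM in ko saline, against 30.4 to 35.4 CPM in wt CL and 29.3 to 30 CPM in wt saline, so the titles match its level. Libraries held 21892817 to 27985019 gene counts. All 10 adipocyte markers listed, among them Adipoq, Plin1 and Lep, were detected in every group, and none was at 0. The summed level of these 10 was 7614 to 11689.9 CPM in ko CL, 16089 to 18016 in ko saline, 28999 to 31883 in wt CL and 25881 to 28229.6 in wt saline. With library size alone in place of TMM the median log2 fold change of all genes shifted to -0.33 for CL in wt, 0.39 for ko against wt under CL and 0.15 under saline.

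Promoter windows, from 250 bases before to 50 after the start, were held in the RefSeq table (build GRCm38.p6) for 7 of the 10 genes and are printed for 4. Pdgfra was highest in ko CL, Dpt and Gsn were highest in wt saline, and Cd34 was not called in any comparison, so the set covers the main behaviours. The windows are chr5:75152001-75152300 for Pdgfra, chr1:164796413-164796712 for Dpt, chr2:35256109-35256408 for Gsn and chr1:194938571-194938870 for Cd34, all on the plus strand. Capitals mark matches on either strand to one of 6 motifs, where N is any base. The TATA box was read as TATAAA. The second motif was CCAAT. The AP-1 motif was read as TGANTCA. The TEAD motif was read as GGAATG. The E-box was read as CANNTG. The GC box was read as GGGCGG.
Pdgfra: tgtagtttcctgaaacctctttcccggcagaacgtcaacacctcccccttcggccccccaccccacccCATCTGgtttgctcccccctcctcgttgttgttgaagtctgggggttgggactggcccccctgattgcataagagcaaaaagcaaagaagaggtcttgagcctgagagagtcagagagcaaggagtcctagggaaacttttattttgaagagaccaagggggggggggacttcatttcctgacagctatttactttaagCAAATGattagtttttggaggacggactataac
Dpt: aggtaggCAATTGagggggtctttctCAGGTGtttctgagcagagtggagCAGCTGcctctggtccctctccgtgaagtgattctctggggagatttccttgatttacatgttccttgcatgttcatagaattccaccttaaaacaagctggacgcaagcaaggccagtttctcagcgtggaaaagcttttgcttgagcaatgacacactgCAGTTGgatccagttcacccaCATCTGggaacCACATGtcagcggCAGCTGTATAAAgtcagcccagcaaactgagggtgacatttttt
Gsn: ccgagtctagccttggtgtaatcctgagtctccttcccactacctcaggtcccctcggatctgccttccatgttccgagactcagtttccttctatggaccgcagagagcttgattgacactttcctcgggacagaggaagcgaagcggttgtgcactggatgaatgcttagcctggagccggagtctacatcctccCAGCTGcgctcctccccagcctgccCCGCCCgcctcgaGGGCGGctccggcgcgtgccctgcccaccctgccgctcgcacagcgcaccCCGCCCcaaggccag
Cd34: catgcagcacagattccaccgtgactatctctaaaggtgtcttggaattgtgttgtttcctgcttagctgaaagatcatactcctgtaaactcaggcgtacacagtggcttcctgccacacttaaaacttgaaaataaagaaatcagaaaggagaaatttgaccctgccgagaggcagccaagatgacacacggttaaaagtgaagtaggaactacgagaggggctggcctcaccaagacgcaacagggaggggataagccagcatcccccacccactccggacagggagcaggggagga
The Dpt window held 7 E-box matches and a TATA box match that abuts the last of them, the Pdgfra window 2 E-box matches, and the Gsn window 3 GC box matches and 1 E-box match. The Cd34 window held no match to any of the 6 motifs. Of the 7 members with a window, 6 held an E-box match, 2 a TATA box match, 2 a GC box match, 1 a CCAAT match, 1 a TEAD match and 0 an AP-1 match. Among all 32851 windows of the same length, 72.3% held an E-box match, 13.6% a TATA box match, 35.7% a GC box match, 37.4% a CCAAT match, 14.7% a TEAD match and 7.81% an AP-1 match. A match is a stretch of letters and not a measured binding site.

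Compared per length of exon, Gsn was the most abundant member in every group, at 935 ± 49.8 CPM per kb in ko CL, 1541 ± 246 in ko saline, 1352 ± 142 in wt CL and 3015 ± 188 in wt saline (SD, n = 3 each). Dpt and Dcn followed in wt saline, at 289 ± 10.8 and 261 ± 14.3 CPM per kb. The 3 markers of the early progenitor state were far lower: per kb, Cd55 was at 16.9 ± 1.03, Pi16 at 9.74 ± 0.985 and Dpp4 at 9.51 ± 1.36 CPM in wt saline. In ko CL the order differed, with Dcn at 299.8 ± 33.4, Dpt at 164 ± 12.3 and Lum at 162 ± 18.8 CPM per kb, whereas in wt saline Lum was at 45.4 ± 2.33 CPM per kb.

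**Figure D1:**
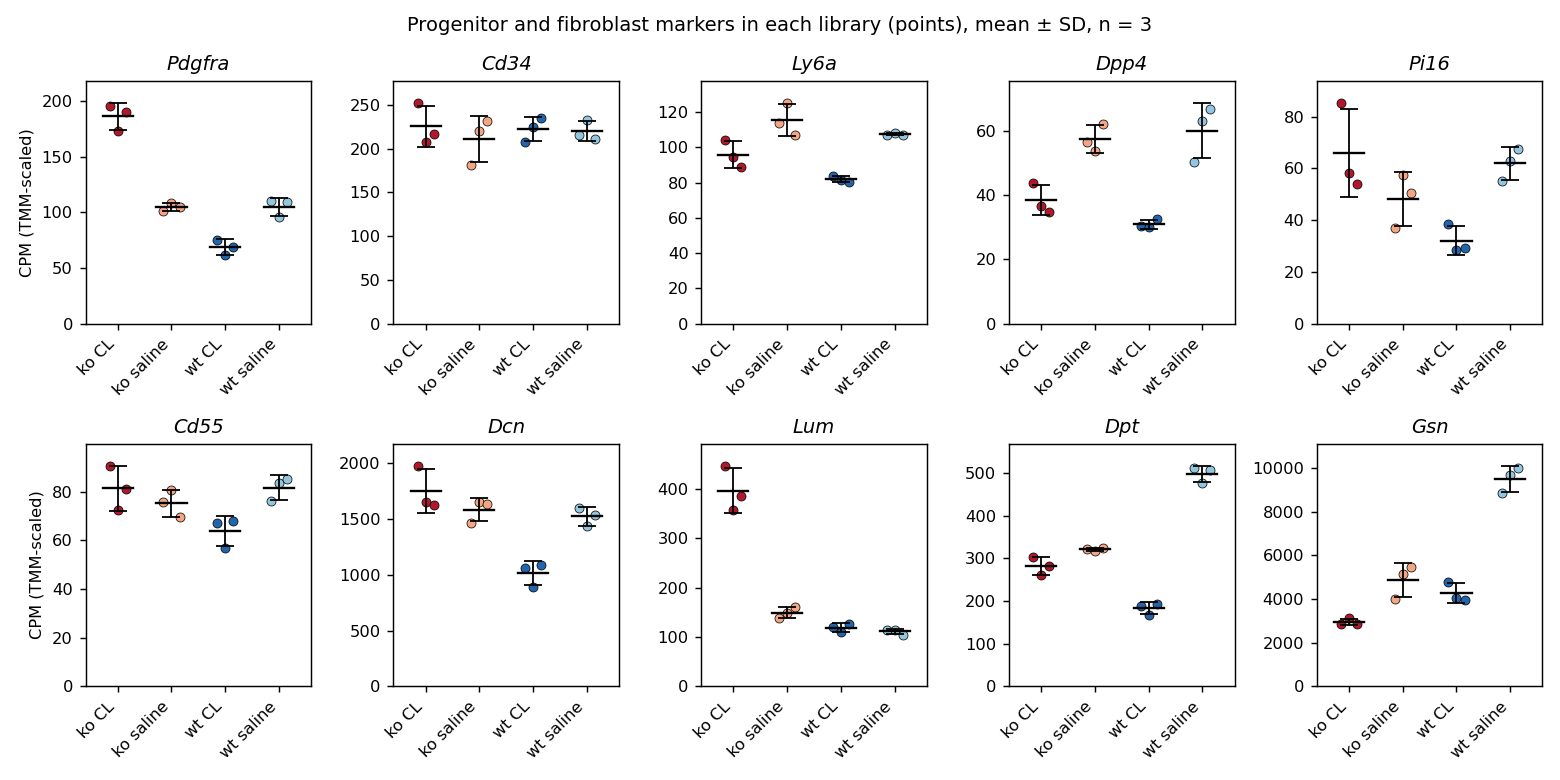
Level of each of the 10 genes (CPM, linear axes from 0) in every library of the 4 groups; points are libraries, bars the mean ± SD of 3. Lum and Pdgfra stand highest in ko CL, Dpt and Gsn highest in wt saline, and Cd34 lies between 181 and 252 CPM throughout.

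The receptor and surface markers that define the stromal cells did not move together. Pdgfra, the receptor for PDGF-A that defines adipose progenitors (ENSMUSG00000029231, GRCm38 chromosome 5, 75152292 to 75198215, plus strand), was at 196, 173 and 189.8 CPM in the ko CL libraries and 101, 108 and 105 in ko saline. In wt mice it was at 75.5, 61.5 and 69.3 CPM under CL, against 110.3, 95.6 and 109 under saline. All 3 ko CL libraries lay above and all 3 wt CL libraries below the 6 saline libraries, and the saline libraries of the genotypes overlapped. By the quasi-likelihood test of edgeR, adjusted over all genes after Benjamini and Hochberg, Pdgfra rose 1.78-fold under CL in ko (log2 fold change 0.83 ± 0.08 SE, adjusted p = 2.85e-06). It fell under CL in wt, to 0.656-fold (-0.61 ± 0.08, adjusted p = 0.000129).

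Cd34, a sialomucin of progenitors and of endothelium (ENSMUSG00000016494, chromosome 1, 194938819 to 194961279, plus strand), was at 252, 207 and 217 CPM in ko CL and 181, 220.5 and 231 in ko saline. In wt mice it was at 208, 225 and 235 CPM under CL, against 216, 233 and 211 under saline. The libraries of all groups overlapped, and Cd34 was not called in any comparison, with log2 fold changes of -0.06 to 0.10 and SEs of 0.10 to 0.14. With library size alone its log2 fold change for CL in wt turned to -0.30 (adjusted p = 0.025), beside a median of all genes of -0.33, and for ko against wt under CL it became 0.40 (adjusted p = 0.00369), beside a median of 0.39. Over the 12 alternatives its adjusted p ranged from 0.025 to 0.999 for CL in wt and from 0.00369 to 0.935 for ko against wt under CL.

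Ly6a, the stem cell antigen Sca-1 (ENSMUSG00000075602, chromosome 15, 74994877 to 74998031, minus strand), was at 104, 94.2 and 89 CPM in ko CL and 114, 125 and 107 in ko saline. It was at 83.6, 81.6 and 80.5 CPM in wt CL, against 107, 108 and 107 in wt saline. The CL libraries lay below the saline libraries in each genotype. Ly6a fell under CL in ko (-0.27 ± 0.07, adjusted p = 0.00557) and in wt (-0.39 ± 0.07, adjusted p = 0.000919). Ly6a has close relatives on the same chromosome, among which reads can be split or lost, so its level is less certain. One of them, Ly6c1, was at 70.8 to 76 CPM in ko CL, 88.2 to 109 in ko saline, 82.5 to 89.6 in wt CL and 90.6 to 95.9 in wt saline.

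The markers of the early, interstitial state were low under CL in wt mice and split in ko mice. Dpp4, a surface peptidase (ENSMUSG00000035000, chromosome 2, 62330073 to 62412231, minus strand), was at 43.9, 36.7 and 34.9 CPM in ko CL and 56.7, 53.7 and 62.1 in ko saline. It was at 30.4, 30 and 32.6 CPM in wt CL, against 50.4, 63 and 66.9 in wt saline. Within each genotype the CL libraries lay below the saline libraries. Dpp4 fell 1.49-fold under CL in ko (-0.58 ± 0.11, adjusted p = 0.00063) and 1.94-fold in wt (-0.96 ± 0.11, adjusted p = 3.81e-05).

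Pi16, a secreted peptidase inhibitor (ENSMUSG00000024011, chromosome 17, 29317680 to 29330593, plus strand), was at 85.2, 58.3 and 53.8 CPM in ko CL and 36.8, 57.4 and 50.4 in ko saline. It was at 38.4, 28.4 and 29.4 CPM in wt CL, against 55.2, 63 and 67.6 in wt saline. In ko the groups overlapped and ko CL library 1 stood apart, while in wt they did not overlap. Pi16 fell 1.93-fold under CL in wt (-0.95 ± 0.19, adjusted p = 0.00192), and in ko it was at 0.45 ± 0.19 (adjusted p = 0.055). That ko value passed 0.05 with no filter on low counts (adjusted p = 0.0256), in DESeq2 (0.0392), without ko saline 2 (0.0363) or without ko CL 3 (0.0372), in a range of 0.0256 to 0.358 over 12 alternatives. Without ko CL library 1 the log2 fold change was 0.19 (adjusted p = 0.358).

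Cd55, which restrains complement on the cell surface (ENSMUSG00000026399, chromosome 1, 130439027 to 130462744, minus strand), was at 90.7, 72.4 and 81.1 CPM in ko CL and 75.8, 80.6 and 69.6 in ko saline. It was at 67, 57 and 68.1 CPM in wt CL, against 76.1, 83.8 and 85.4 in wt saline. The ko groups overlapped and the wt groups did not. Cd55 fell under CL in wt (-0.35 ± 0.09, adjusted p = 0.0112) and was at 0.11 ± 0.09 in ko (adjusted p = 0.332). The wt call was lost without wt CL 2 (-0.27, adjusted p = 0.0574), in a range of 6.5e-05 to 0.0574 over 12 alternatives. Its neighbouring relative Cd55b had at most 10 counts in any library.

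Among the matrix genes, the neighbouring proteoglycan genes Dcn and Lum responded differently. They lie 46984 bp apart on the plus strand of chromosome 10, Dcn (ENSMUSG00000019929) at 97479609 to 97518143 and Lum (ENSMUSG00000036446) at 97565128 to 97572703. Dcn, encoding decorin, was at 1975, 1650.2 and 1626 CPM in ko CL and 1466, 1648 and 1631 in ko saline. It was at 1057, 893 and 1091 CPM in wt CL, against 1601, 1435 and 1536 in wt saline. The wt CL libraries alone lay below all others. Dcn fell 1.5-fold under CL in wt (-0.59 ± 0.10, adjusted p = 0.000757) and was at 0.15 ± 0.10 in ko (adjusted p = 0.249).

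Lum, encoding lumican, was at 447, 358 and 385 CPM in ko CL and 138, 149 and 161 in ko saline. It was at 119.9, 110.4 and 127 CPM in wt CL, against 114, 115 and 105 in wt saline. The ko CL libraries lay above all others, and the wt groups overlapped. Lum rose 2.65-fold under CL in ko (1.41 ± 0.09, adjusted p = 6.71e-08) and was at 0.10 ± 0.09 in wt (adjusted p = 0.43), where the direction turned to -0.22 with library size alone. The next genes of the cluster were low: Epyc was at 2.84 to 6.08 CPM in ko CL, 2.18 to 3.33 in ko saline, 1.01 to 1.07 in wt CL and 1.44 to 1.85 in wt saline. Kera had at most 2 counts in any ko CL library and 0 counts in all other libraries, and was not tested.

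Dpt, encoding dermatopontin (ENSMUSG00000026574, chromosome 1, 164796644 to 164824266, plus strand), was at 304, 261 and 282 CPM in ko CL and 322, 316 and 324 in ko saline. It was at 189, 168 and 193 CPM in wt CL, against 511, 476 and 506 in wt saline. The 4 groups did not overlap at all. Dpt fell 2.71-fold under CL in wt (-1.44 ± 0.08, adjusted p = 2.81e-07). In ko its log2 fold change was -0.18 ± 0.07 (adjusted p = 0.0506). It passed 0.05 there with RLE scaling (adjusted p = 0.0397), library size alone (0.00507), DESeq2 (0.0125), the replicate block (0.0384) and without ko CL 1 (0.00824), in a range of 0.00507 to 0.104 over 12 alternatives.

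Gsn (ENSMUSG00000026879, chromosome 2, 35256380 to 35307892, plus strand) was at 2882, 3133 and 2844 CPM in ko CL and 3985, 5145 and 5463 in ko saline. It was at 4786, 4044 and 3977 CPM in wt CL, against 8853, 9701 and 9999 in wt saline. The wt saline libraries lay above all others and the ko CL libraries below all others. Gsn fell 1.65-fold under CL in ko (-0.72 ± 0.12, adjusted p = 0.000305) and 2.23-fold in wt (-1.16 ± 0.12, adjusted p = 2.04e-05). The summed adipocyte markers, at 7614 to 11689.9 CPM in ko CL and 16089 to 18016 in ko saline, were lower in ko than in wt under each treatment and lower under CL in ko. In wt they were at 28999 to 31883 CPM under CL and 25881 to 28229.6 under saline. Of these 10 markers CL raised 1 in wt, Fabp4, at 16507 ± 635 CPM under CL and 11428 ± 607 under saline (SD, n = 3 each). It lowered 3, Lep, Cfd and Adrb3, and 6 were not called. The part of adipocytes in the Gsn values was not tested.

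Counted together, CL lowered 8 of the 10 genes in wt mice and raised none, where 17.1% of all genes tested fell and 19.6% rose. The median of the 10 log2 fold changes was -0.60, against -0.0118 over all genes. For the 8 genes the CL libraries all lay below the saline libraries, which held for 24.4% of all genes. Neither edgeR at an unadjusted p under 0.05 nor DESeq2 gave a higher gene in wt (0 of 10 in each), and libraries lay higher without overlap for 26.6% of all genes. In ko mice 2 rose under CL (Pdgfra and Lum), 3 fell (Dpp4, Ly6a and Gsn) and 5 were not called, where 27.2% of all genes rose and 27.5% fell, so the share called, 5 of 10, lay near the 54.6% of all genes. The median was 0.10, against -0.0099. Pdgfra and Lum lay higher and Dpp4, Dpt, Ly6a and Gsn lower without overlap in ko, which held for 29.7% and 31.2% of all genes. In a bulk tissue, fewer cells of a type and less RNA per cell cannot be told apart.

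**Figure D2:**
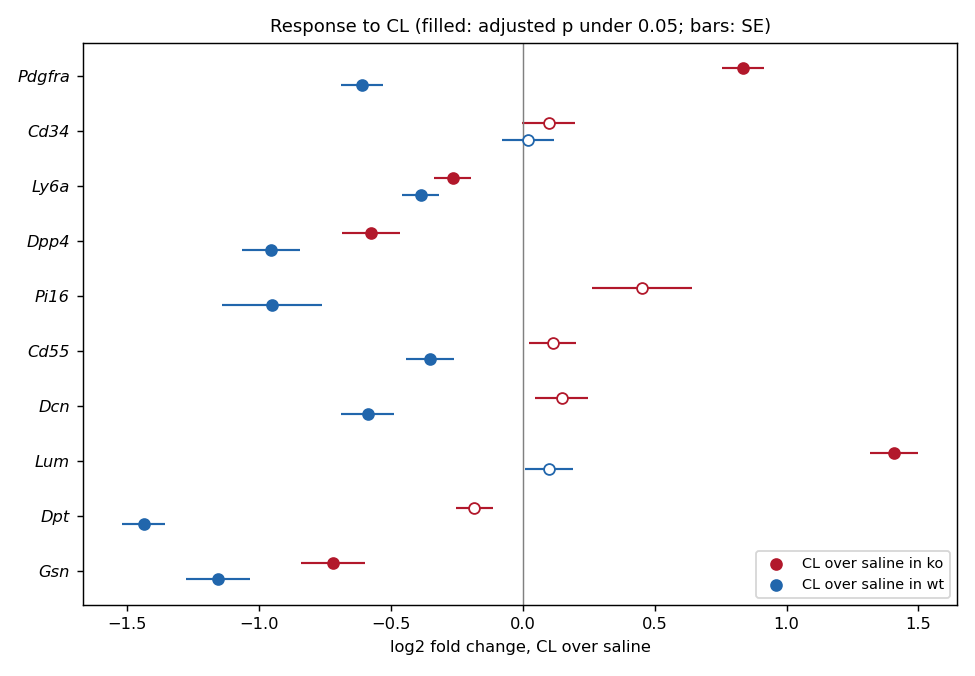
Log2 fold change of CL over saline for each gene, ko above wt, with bars for the SE and filled points for an adjusted p under 0.05. In wt 8 genes are filled and negative. In ko Pdgfra and Lum are filled and positive, and Dpp4, Ly6a and Gsn are filled and negative.

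Whether CL acted unequally in ko and wt mice was tested directly, as the ko response minus the wt response. A positive difference means a higher response in ko, which can be a smaller fall. The log2 difference was above 0 for all 10 genes, beside a median of -0.0277 over all genes. It was called positive for 6 genes and negative for none, where 21.8% of all genes had a higher response in ko and 23.6% a lower one. No gene of the 10 was lower at an unadjusted p under 0.05 or in DESeq2 either (0 in each). Pdgfra differed by 1.44 ± 0.12 (adjusted p = 1.12e-06), Pi16 by 1.40 ± 0.27 (adjusted p = 0.000935), Lum by 1.31 ± 0.13 (adjusted p = 5.4e-06) and Dpt by 1.25 ± 0.11 (adjusted p = 1.43e-06). Smaller differences were called for Dcn, at 0.73 ± 0.15 (adjusted p = 0.00127), and Cd55, at 0.46 ± 0.13 (adjusted p = 0.0124). The progenitor surface genes Ly6a (0.12 ± 0.10, adjusted p = 0.343) and Cd34 (0.08 ± 0.14, adjusted p = 0.683) were not called, and neither were Dpp4 (0.38 ± 0.16, adjusted p = 0.0643) and Gsn (0.44 ± 0.17, adjusted p = 0.0557). Dpp4 passed 0.05 with library size alone (adjusted p = 0.00442), with no filter (0.0404), without wt saline 1 (0.0115) or without ko CL 3 (0.0484), in a range of 0.00442 to 0.165 over 17 alternatives. Gsn passed with library size alone (0.00677), in DESeq2 (0.0143), without wt CL 1 (0.0329) or without ko saline 3 (0.0352), in a range of 0.00677 to 0.13, and Ly6a with library size alone (0.0165), in a range of 0.0165 to 0.693.

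Under CL, knockout fat held more of most of these transcripts than wild-type fat. Of the 10 genes, 8 were higher in ko and 1, Gsn, was lower, where 27.6% of all genes were higher and 29.3% lower, and the libraries of the genotypes did not overlap for those 8 or for Gsn, which held in the higher direction for 30.9% and in the lower for 32.7% of all genes. With library size alone 9 were higher and none lower. Lum was 3.33-fold higher (1.74 ± 0.09, adjusted p = 9.48e-09), Pdgfra 2.71-fold (1.44 ± 0.08, adjusted p = 2.1e-08) and Pi16 2.05-fold (1.04 ± 0.19, adjusted p = 0.000455). Dcn was 1.73-fold and Dpt 1.54-fold higher, and Cd55 1.27-fold (adjusted p = 2.67e-05, 1.24e-05 and 0.00729). Gsn was lower by 1.45-fold (-0.53 ± 0.12, adjusted p = 0.00237), and with library size alone at -0.15 (adjusted p = 0.304, range 1.51e-05 to 0.304), which is -0.54 relative to the median of all genes.

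The changes of Dpp4 (0.31 ± 0.11, adjusted p = 0.0295) and Ly6a (0.23 ± 0.07, adjusted p = 0.0147) under CL were small and depended on single libraries. The Dpp4 call was lost without wt CL 1 (adjusted p = 0.0787), wt CL 2 (0.0885) or ko CL 1 (0.142), in a range of 7.13e-05 to 0.142 over 12 alternatives. The Ly6a call was lost without ko CL 1 (adjusted p = 0.0663), in a range of 1.28e-05 to 0.0663. Within ko CL, library 1 was the highest of the 3 for 9 of the 10 genes. The same library had the lowest summed adipocyte markers, 7614 CPM against 11689.9 and 10852 in the other two, and the highest summed macrophage markers, 12213 against 8887 and 9698. Within wt CL, library 2 was the lowest for 7 of the 10 genes.

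Under saline the genotypes differed in 3 of the 10 genes. In ko Lum was higher and Dpt and Gsn were lower, where 14.4% of all genes were called, 7.99% higher and 6.45% lower. The same 3 genes did not overlap between the genotypes, which held for 19.4% of all genes in the higher and 18.2% in the lower direction. With library size alone 2 were higher and 2 lower, the second higher gene being Ly6a (0.26, adjusted p = 0.0229, range 0.0229 to 0.744). Gsn fell 1.96-fold (-0.97 ± 0.12, adjusted p = 0.000543) and Dpt 1.55-fold (-0.63 ± 0.07, adjusted p = 0.000319). Lum was 1.34-fold higher (0.43 ± 0.09, adjusted p = 0.00969), a call lost without wt saline 3 (0.38, adjusted p = 0.0515, range 0.000141 to 0.0515). For the other 7 genes the log2 differences lay between -0.36 ± 0.19 (Pi16) and 0.10 ± 0.07 (Ly6a). The 10 markers of ciliated duct epithelium, which is not a cell type of the fat itself, summed to 84.8 to 114 CPM in ko saline and to 18.3 to 50.2 CPM in wt saline, highest in wt saline library 1, and their part in these values was not tested. They summed to 14.2 to 21.8 CPM in ko CL and 17.3 to 21.6 CPM in wt CL, where Dnah5 and Ccdc153 were at 0 in all 3 wt CL libraries. Most of the wt CL sum came from Sox17 (14 ± 2.87 CPM) and Tekt1 (4.9 ± 0.588). Sox17 was at 8.76 ± 1.34 CPM in ko CL, 12.2 ± 0.84 in ko saline and 14.4 ± 1.62 in wt saline. Foxj1 was at 8.01 ± 2.15 CPM in ko saline, 1.6 ± 2.47 in wt saline, 0.381 ± 0.516 in ko CL and 0.0339 ± 0.0588 in wt CL (SD, n = 3 each).

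**Figure D3:**
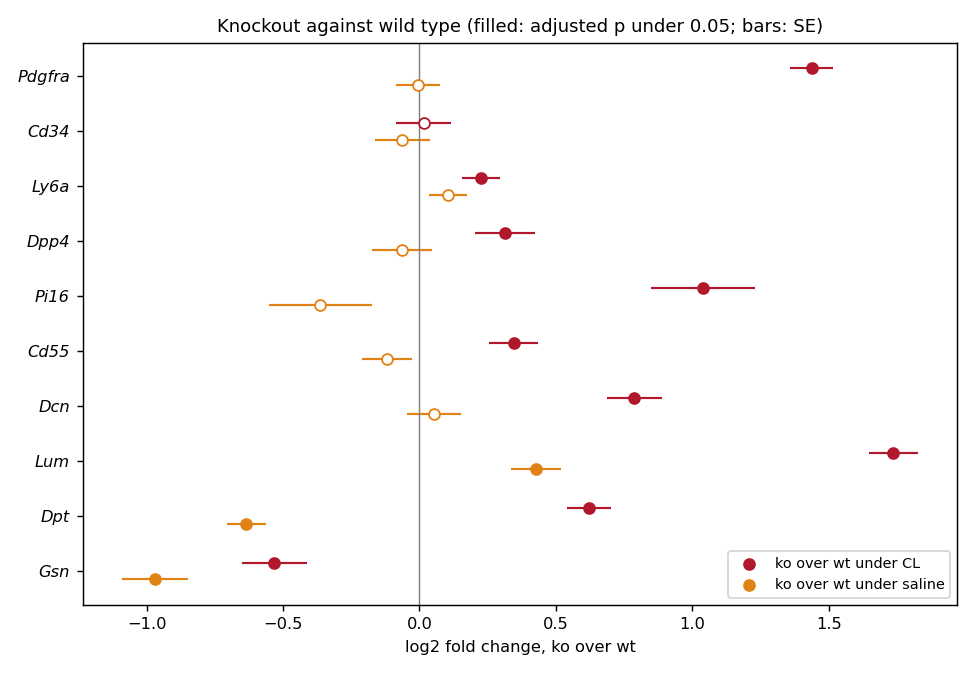
Log2 fold change of ko over wt for each gene, under CL above and under saline below, with bars for the SE and filled points for an adjusted p under 0.05. Under CL 8 genes are filled and positive and Gsn is filled and negative, and Dpt is positive under CL and negative under saline.

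Ratios of counts within a library do not depend on scaling and show unequal change of the members. The ratio of Lum to Dcn was 0.227, 0.217 and 0.237 in ko CL and 0.0945, 0.0906 and 0.0987 in ko saline. It was 0.113, 0.124 and 0.116 in wt CL, against 0.0712, 0.0802 and 0.0682 in wt saline, and the 4 groups did not overlap. The ratio of Dpt to Dcn was highest in wt saline, at 0.319 to 0.332, against 0.154 to 0.173 in ko CL, 0.192 to 0.22 in ko saline and 0.177 to 0.189 in wt CL. The ratio of Pi16, a marker of the early state, to the general progenitor marker Pdgfra was 0.284 to 0.435 in ko CL, 0.365 to 0.53 in ko saline, 0.424 to 0.509 in wt CL and 0.501 to 0.659 in wt saline. Only ko CL and wt saline were separate from each other in this ratio.

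**Figure D4:**
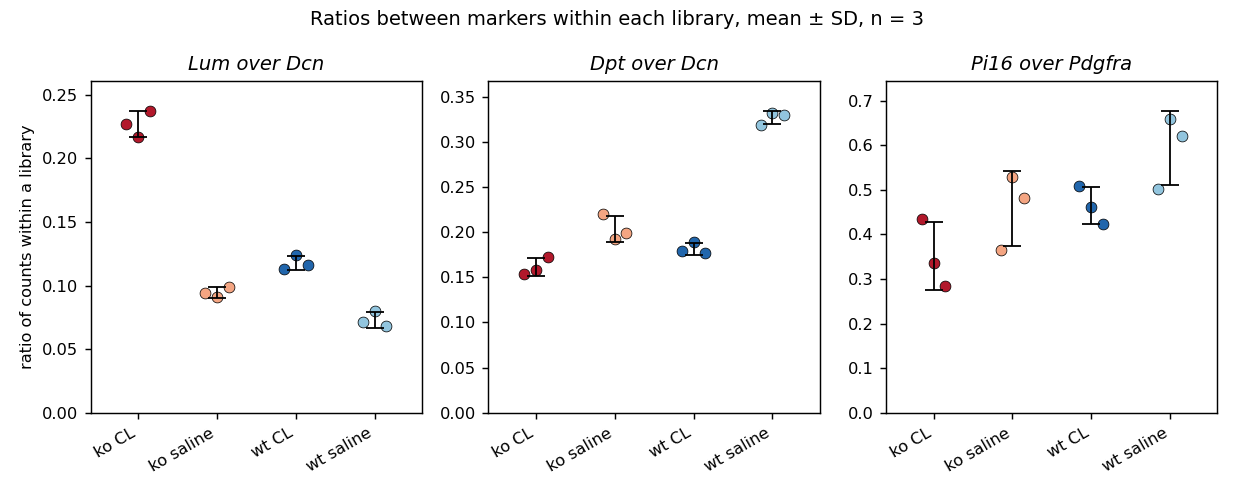
Ratio of the raw counts of 2 genes in each library (no unit, linear axes from 0), with bars for the mean ± SD of 3 libraries. Lum over Dcn is highest in ko CL, at 0.217 to 0.237, and Dpt over Dcn highest in wt saline, at 0.319 to 0.332.

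For each of the 10 genes, the protein-coding genes with the most similar pattern were sought among 10819 candidates, by the root mean square difference of centred log2 CPM over the 12 libraries. Timp2 (0.0901) and Bgn (0.106), an inhibitor of matrix proteases and another proteoglycan, were nearest to Pdgfra. Clec3b (0.121) and Tnxb (0.145) were nearest to Pi16, Ecm2 (0.0709) and Itpr3 (0.079) to Dcn, and Slit3 (0.166) and Sema5a (0.167), both guidance proteins, to Dpt. Postn (0.138), encoding the matrix protein periostin, and the lysosomal protease gene Ctsb (0.144) were nearest to Lum. Fgf1 (0.117) and Naaa (0.133) were nearest to Dpp4, Tns2 (0.157) and Lrrc3 (0.162) to Gsn, and Pigh (0.0769) and Thy1 (0.0792) to Cd55. Cntln (0.0655) and Rpn2 (0.0676) were nearest to Ly6a, and Snrnp48 (0.0734) and Alyref (0.0749) to Cd34, the flattest of the 10 genes. These distances are descriptions, and the lower they are for a gene of small spread, such as Cd34 with an SD of 0.119, the less they tell.

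The wider fibroblast programme was read from lists of genes other than the 10. Of 28 pan-fibroblast genes, CL raised 18 and lowered 3 in ko mice (median log2 fold change 0.42), and raised none and lowered 22 in wt mice (median -0.64), beside 27.2% of all genes higher and 27.5% lower in ko and 19.6% and 17.1% in wt. No pan-fibroblast gene rose in wt at an unadjusted p under 0.05 in edgeR or in DESeq2 (0 in each). In ko, Mmp2, a gelatinase, rose 3.2-fold to 265 ± 3.04 CPM in ko CL, against 82.9 ± 10.7 in ko saline (SD, n = 3 each, adjusted p = 5.94e-08), and Pcolce, an enhancer of procollagen processing, 2.49-fold (adjusted p = 5.7e-06). In wt, Efemp1 fell 2.51-fold and Fbln2 1.86-fold (adjusted p = 2e-06 and 2.47e-05), both encoding fibulins. In ko Efemp1 fell as well, 1.61-fold (adjusted p = 7.92e-05), while Fbln2 rose 1.65-fold (adjusted p = 4.19e-05). The difference of the responses was called higher in ko for 21 of the 28 and lower for 1, the transcription factor gene Ebf1 (-0.36). Over all genes these shares were 21.8% and 23.6%. Under CL 25 of 28 were higher in ko than in wt and 1 lower, beside 27.6% and 29.3% of all genes. The median of the 28 was 0.99. Among the higher ones the Wnt inhibitor gene Sfrp1 was at 69.5 ± 10 CPM in ko CL and 17.7 ± 0.876 in wt CL (SD, n = 3 each, adjusted p = 2.14e-07). Under saline 2 of 28 differed, Fbln2 (-0.35, adjusted p = 0.0319) and Tnxb (-0.48, adjusted p = 0.0325), both lower in ko, near the 6.45% of all genes that were lower. None was called higher there in edgeR (0 of 28, 3 at an unadjusted p under 0.05, and 1 in DESeq2), beside 7.99% of all genes.

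The lists for the named stromal states are set beside the same shares of all genes, 27.2% higher and 27.5% lower under CL in ko and 19.6% and 17.1% in wt. Of 12 other genes of the interstitial progenitors, CL raised 4 and lowered 4 in ko, and lowered 9 in wt with none raised (median 0.04 in ko, -0.76 in wt), so the ko counts lay near the shares of all genes. Emilin2, an elastic fibre protein gene, was at 90.5 ± 15.2 CPM in ko CL and 63.4 ± 13.5 in ko saline, and at 32.4 ± 2.47 in wt CL and 85.7 ± 2.59 in wt saline (SD, n = 3 each), a difference of the responses of 1.92 (adjusted p = 8.91e-06). Anxa3 rose 1.92-fold under CL in ko (adjusted p = 1.54e-05), while the chemokine scavenger gene Ackr3 fell 1.88-fold (adjusted p = 7.87e-06). In wt Ackr3 fell as well, 1.47-fold (adjusted p = 0.000999), and Anxa3 was not called (-0.29, adjusted p = 0.0598). Bmp7 fell 2.63-fold under CL in wt (adjusted p = 0.000182) and was low throughout, at 1.63 ± 0.0733 CPM in ko CL, 4.01 ± 0.743 in ko saline, 1.34 ± 0.0494 in wt CL and 3.54 ± 0.659 in wt saline. Under CL 6 of the 12 were higher in ko and 2 lower, beside 27.6% and 29.3% of all genes. Fbn1, encoding fibrillin, was higher by 1.32 (adjusted p = 4.98e-06). Under saline 0 of the 12 were called in edgeR, beside 14.4% of all genes. The median of the 12 was -0.10 there (0 higher and 2 lower at an unadjusted p under 0.05, 0 and 1 in DESeq2).

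Of 12 genes of the committed, Icam1-bearing state 11 could be tested, since Dlk1 did not pass the filter. CL raised 2 and lowered 1 in ko, and raised 1 and lowered 5 in wt. Icam1 itself, an adhesion receptor also used by endothelial and immune cells, was at 37.4 ± 5.07 CPM in ko CL and 23 ± 3.09 in ko saline, against 14.2 ± 1.02 in wt CL and 20.7 ± 0.749 in wt saline (SD, n = 3 each), with a difference of the responses of 1.25 (adjusted p = 4.97e-05). Cxcl14 rose 2.82-fold in ko under CL (adjusted p = 0.000128), and Zfp423, a commitment factor of preadipocytes, fell 1.53-fold (adjusted p = 0.000122). Under CL, 4 of the 11 were higher in ko than in wt and 2 lower (median -0.10), beside 27.6% and 29.3% of all genes. Ggt5 was 1.67-fold higher (adjusted p = 4.62e-06). Zfp423 (-0.60, adjusted p = 0.000125) and Col5a3 (-0.63, adjusted p = 0.00153) were lower. Under saline Vcam1 was 1.36-fold higher and Col5a3 1.78-fold lower in ko (adjusted p = 0.0172 and 0.00247). Of 8 genes of the CD142+ stromal cells, CL raised 2 and lowered 3 in ko, and raised 1 and lowered 3 in wt, and both counts of raised genes lay near the shares of all genes. Igfbp3 and Fmo2 fell in both, at -0.80 and -0.99 in ko (adjusted p = 1.08e-05 and 9.79e-05) and -0.63 and -1.03 in wt (adjusted p = 2e-04 and 0.000182). Under CL, 4 of these 8 were higher in ko than in wt and 2 lower, beside 27.6% and 29.3% of all genes. Cpe was 2.24-fold and Gdf10 2.6-fold higher (adjusted p = 2.81e-06 and 1.72e-05). Meox2 (-1.11, adjusted p = 3.19e-05) and Igfbp3 (-0.39, adjusted p = 0.0032) were lower. The response of Meox2 to CL was also lower in ko (-1.10 ± 0.21, adjusted p = 0.000887). Under saline 0 of these 8 were called in edgeR (0 higher and 2 lower at an unadjusted p under 0.05, 0 in DESeq2), beside 14.4% of all genes.

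The other proteoglycans of the family to which Dcn and Lum belong were read in the same way, and 13 of 14 could be tested. CL raised 2 and lowered 6 in ko (median -0.51), and lowered 8 and raised none in wt (median -0.71), beside the same shares of all genes. Prelp fell 2.54-fold in ko and 2.07-fold in wt (adjusted p = 5.78e-07 and 1.86e-05). Fmod fell 2.15-fold in ko and 2.02-fold in wt (adjusted p = 1.32e-05 and 8.37e-05). Biglycan, from Bgn, was 2.5-fold and Ogn 1.88-fold higher in ko than in wt under CL (adjusted p = 1.83e-07 and 3.82e-06). Under CL 4 of 13 were higher in ko and 1 lower, beside 27.6% and 29.3% of all genes. The 4 higher lay near the share of all genes. A higher response in ko was called for Bgn, Ogn, Ecm2 and Epyc, 4 of 13, and a lower one for none. Of all genes 21.8% had a higher and 23.6% a lower response. Under saline only Optc was called, 2.03-fold higher in ko (adjusted p = 0.0334), beside 14.4% of all genes called. For the ligands of the Pdgfra receptor and the other receptor, Pdgfb rose (0.53 in ko, adjusted p = 4.32e-05, and 0.28 in wt, adjusted p = 0.00887) and Pdgfc fell under CL (-0.73 in ko, adjusted p = 4.89e-06, and -0.63 in wt, adjusted p = 5.49e-05). For these 5 genes 0 differences of the responses were called in edgeR (1 higher and 0 lower at an unadjusted p under 0.05, 0 in DESeq2), beside 45.4% of all genes. Under CL 1 of the 5 was slightly higher in ko than in wt and 2 slightly lower, beside 27.6% and 29.3% of all genes. Pdgfb was higher (0.20, adjusted p = 0.0279), and Pdgfc and Pdgfd were lower (-0.25 and -0.30, adjusted p = 0.0163 and 0.015). Pdgfrb was lower in ko under saline (-0.23, adjusted p = 0.0389), the 1 gene of 5 called, beside 14.4% of all genes. It was not called under CL (-0.07, adjusted p = 0.411).

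Of 13 myofibroblast and scar genes, CL raised 6 and lowered 5 in ko, where 27.2% of all genes rose and 27.5% fell, and raised 3 and lowered 6 in wt, where 19.6% rose and 17.1% fell. The 3 raised in wt lay near the share of all genes. Postn was at 579 ± 80.9 CPM in ko CL and 198 ± 8.73 in ko saline, against 189.6 ± 7.44 in wt CL and 170.5 ± 16.4 in wt saline (SD, n = 3 each), and rose in ko (1.55, adjusted p = 7.18e-08). Tgfb1, encoding a fibrogenic cytokine that macrophages also make, rose 3.13-fold in ko (adjusted p = 2.97e-07). In wt the protease gene Adam12 rose 3.32-fold (adjusted p = 7.22e-06) and the matrix gene Tnc 2.13-fold (adjusted p = 0.000341). Adam12 rose in ko as well, 3.37-fold (adjusted p = 1.26e-06), while Tnc fell there (-0.47, adjusted p = 0.0401). Acta2 and Tagln, the contractile genes of this list, are also smooth muscle markers, and fell under CL in both genotypes (-1.23 and -0.58 in ko, -1.46 and -0.67 in wt). Under saline Cthrc1 was 1.9-fold higher and Col12a1 1.48-fold lower in ko (adjusted p = 0.0224 and 0.0242).

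Markers of most other cell types also differed between the groups, in different directions. The 10 macrophage markers summed to 8887 to 12213 CPM in ko CL and 1604 to 1688 in ko saline, against 897 to 1076 in wt CL and 1658 to 1766 in wt saline. CL raised 9 and lowered 1 of them in ko and lowered all 10 in wt. The 28 pan-fibroblast genes summed to 10483 to 12001 CPM in ko CL and 5920.2 to 8096 in ko saline, against 4906 to 5853 in wt CL and 7409 to 7461 in wt saline, so CL and saline libraries did not overlap in either genotype. Endothelial markers, which bear on Cd34 and Ly6a, summed to 749.6 to 913 CPM in ko CL and 1138 to 1219.9 in ko saline, against 1447 to 1798 in wt CL and 1274 to 1320.4 in wt saline. Mesothelial markers summed to 183 to 245 CPM in ko CL and 282 to 402 in ko saline, against 149 to 174 in wt CL and 328 to 404 in wt saline. Smooth muscle and pericyte markers summed to 569.9 to 725 CPM in ko CL and 1285 to 1601 in ko saline, against 1049.8 to 1245 in wt CL and 1389 to 1766 in wt saline. T and NK cell markers stayed at 11.5 to 26.8 CPM in all libraries. Of all genes, CL raised 27.2% and lowered 27.5% in ko, and raised 19.6% and lowered 17.1% in wt. CL raised 0 and lowered 8 of the 10 adipocyte markers in ko, against 1 and 3 in wt. It raised 0 and lowered 8 endothelial markers in ko, against 5 and 1 in wt, and raised 1 and lowered 6 mesothelial markers in ko, against 0 and 10 in wt. Of the smooth muscle and pericyte markers 0 rose and 7 fell in ko, against 1 and 3 in wt, and of the T and NK cell markers 2 rose and 0 fell in ko, against 0 and 1 in wt. The wt counts of adipocyte and of smooth muscle and pericyte markers lay near the shares of all genes. So did the 2 T and NK cell markers raised in ko. No marker of these lists was at 0 across a whole group, and the part of these cell types in the values of the 10 genes was not tested.

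**Figure D5:**
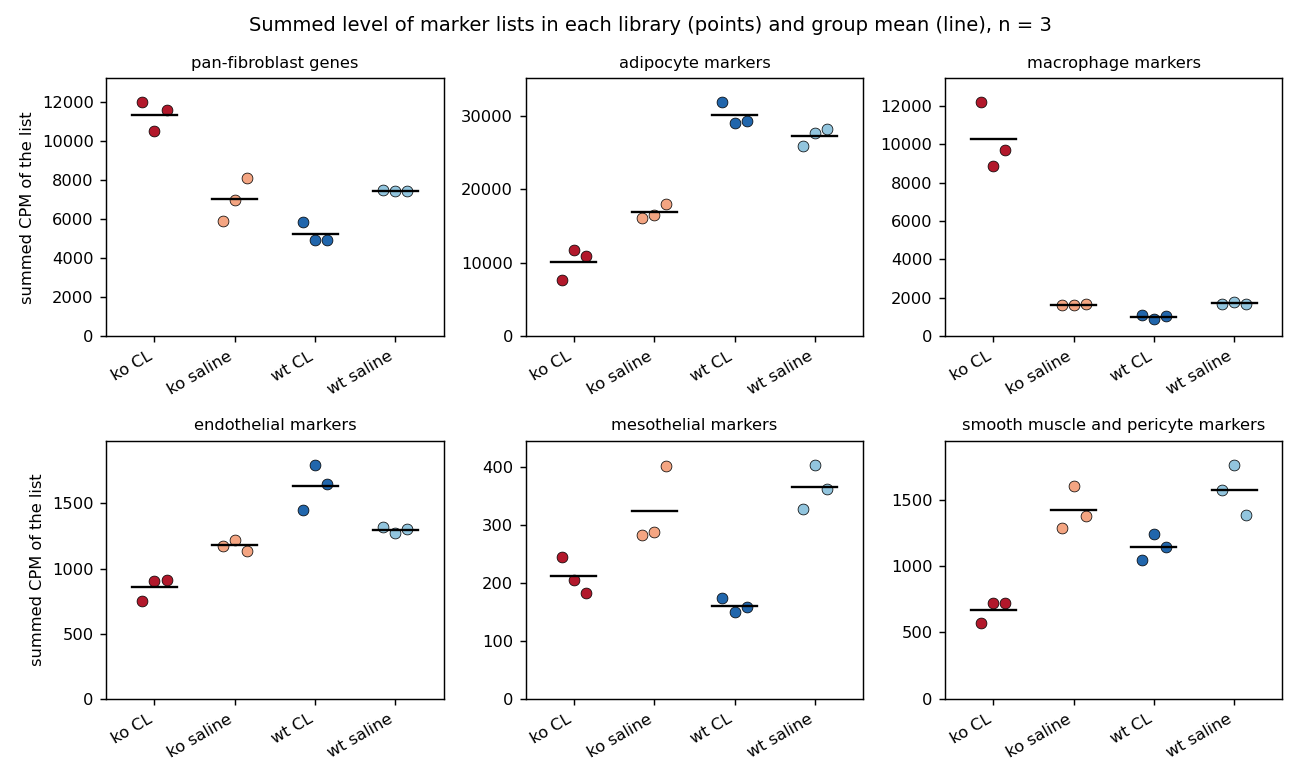
Summed CPM of 6 marker lists in every library (points, linear axes from 0) with the mean of each group of 3 (line). Macrophage markers are at 8887 to 12213 CPM in ko CL and at most 1766 CPM elsewhere, and pan-fibroblast genes are highest in ko CL.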

How the data were processed

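RNA-seq counts of 12 libraries (4 groups of 3, each library 500 ng of RNA from 2 mice, 250 ng each, taken at zeitgeber time 9) were analysed. The deposited files hold raw counts per Ensembl gene, aligned by STAR and counted by HTSeq against GRCm38, per the submitters' processing notes. Neither tool versions nor the gene models are stated in the sources used here, and the file names state reverse-strand counting. The 5 summary lines of each file (12.45% to 17.23% of its reads) were left out. Symbols, coordinates and exon lengths came from GENCODE M21, which matched 53274 of 53379 identifiers. One list symbol, Ctgf, was matched as Ccn2 through RefSeq synonyms.

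Genes were kept by filterByExpr of edgeR 4.0.16 (minimum count 10) in R 4.3.3, scaled by TMM and tested with the quasi-likelihood test in a model with 1 mean per group over all 12 libraries (8 residual degrees of freedom). Benjamini-Hochberg adjustment ran over all 16554 genes, with calls under 0.05. SEs were derived from each log2 fold change and its F statistic. Log2 CPM used a prior count of 1, and the common biological coefficient of variation was 11.5%. The test was tested on simulated counts first, for CL against saline in wt. It recovered 55% of 100 genes changed 1.5-fold and 98% of 100 changed 2-fold, and called 0.0753% of the unchanged genes. A gene that was not called may thus still differ by a fold of about 1.5 or less. Alternatives were RLE scaling, library size alone, no filter, DESeq2 1.42.0 on the same genes, only the groups compared, a replicate block and leaving out each library.

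The 10 genes are named in every comparison. Of each other stromal list up to 2 called genes with the smallest adjusted p per comparison are named, and for each of the 10 genes the 2 nearest protein-coding genes of at least 5 CPM. Other genes named by their values were chosen after these were seen. Members and lists were chosen with earlier results of these data known. No pair of libraries of a group agreed within sampling noise (chi-square per degree of freedom of at least 6.96).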

Additional observations from a re-analysis of the deposited data

Results flagged for a closer look

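Of the 10 genes, 6 had a response to CL that differed between the genotypes in the direct test of that difference, and these are listed for a closer look. The log2 difference, ko minus wt, was 1.44 for Pdgfra, 1.40 for Pi16, 1.31 for Lum, 1.25 for Dpt, 0.73 for Dcn and 0.46 for Cd55. Pdgfra and Lum rose under CL in ko, where Pi16, Dpt, Dcn and Cd55 were not called. In wt Pdgfra, Pi16, Dpt, Dcn and Cd55 fell and Lum was not called. Groups of 3 libraries are too small for a test of single outlying libraries.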

How the results depend on the processing

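Of 650 values of single genes under the alternatives, 622 kept their side of 0.05 with no reversal of a called value (uncalled values could change sign, as Lum did for CL in wt, at -0.22 with library size alone), 7 lost the call, 20 gained it and 1 was reversed, Cd34 for CL in wt with library size alone (-0.30). That scaling counts 1329 genes higher and 8048 lower for CL in wt (3249 and 2836 with TMM), 3733 and 506 for ko against wt under saline (1323 and 1068), 8667 and 2237 for ko against wt under CL (4561 and 4847), and 2267 with a lower response in ko (3903). Among the 10 genes it gave 2 higher under saline and 0 lower under CL for ko against wt. Leaving out single libraries gave 509 to 1402 genes higher and 551 to 867 lower for ko against wt under saline (over 1.5 times fewer without wt saline 2 or 3 or ko saline 1 or 2), and 0 to 1 of the 10 higher, 0 without wt saline 3. Libraries with the same number did not deviate together (correlations of -0.401 to 0.17 over 18 pairs, 2 above 0.1), so no pairing by number was seen. With 3 libraries per group this cannot exclude one. With a replicate block the 10 genes had 8 lower for CL in wt, 2 higher and 4 lower for CL in ko, 1 higher and 2 lower for ko against wt under saline, 8 and 1 under CL, and 6 with a higher response in ko, and the block moved 1 call, that of Dpt for CL in ko (-0.19, adjusted p = 0.0384). Depth, at 21892817 counts or more per library, gave each of the 10 genes at least 523 counts in every library, while Kera and Dlk1 did not pass the filter on low counts.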
